A study of Mus musculus with 9 samples.

Results

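Mast cell and basophil genes were followed through GATA1-driven red cell maturation as 9 genes chosen by name, Cpa3, Ms4a2, Fcer1a, Fcer1g, Il1rl1, Hdc, Alox5, Srgn and Cyp11a1. They are 9 of the 24391 genes of the gene-body table, and 54 of the 42114 entries of the table of dREG peaks name one of them as the gene overlapped or as a neighbour. Those 54 entries, called elements here, come from 37 of the 26991 peaks, because many peaks were counted on each strand apart. PRO-seq was used, which counts RNA that transcribing polymerases are making, and dREG peaks are regions where polymerase starts in such data. G1E is a mouse red cell progenitor line without working GATA1, and G1E-ER4 is the same line expressing a fusion of GATA1 with the hormone-binding region of the oestrogen receptor (GATA1-ER). The groups were untreated G1E (n = 2), G1E-ER4 without estradiol (0 h, n = 3), and G1E-ER4 given 100 nM estradiol for 13 h (n = 2) or for 24 h (n = 2). Cells of all groups were grown with erythropoietin and with conditioned medium that supplies Kit ligand, a growth factor on which mast cells also depend. The parent and its derivative are each an established line, the fusion protein is present in every G1E-ER4 group, and no estradiol-treated G1E library was analysed here. Nothing in the labels says that replicates came from separate cultures, so p-values measure only the spread between these libraries.

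Mast cells and basophils carry preformed granules and the high-affinity IgE receptor, and they release histamine, proteases and lipid mediators when antigen cross-links IgE on that receptor. The receptor has an alpha chain that binds IgE (Fcer1a), a beta chain that amplifies the signal (Ms4a2) and a gamma chain with an activation motif (Fcer1g), which other Fc receptors and myeloid cells also use. Il1rl1 encodes ST2, the receptor for interleukin 33. Cpa3 is carboxypeptidase A3, a granule protease, Srgn encodes serglycin, the proteoglycan core to which granule contents bind, and Hdc is histidine decarboxylase, which makes histamine. Alox5 is 5-lipoxygenase, the first enzyme of leukotriene synthesis, and Cyp11a1 is the side-chain cleavage enzyme that turns cholesterol into pregnenolone. GATA2 is a factor of mast cells and of blood progenitors, and GATA1 takes over many GATA sites as red cells mature.

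Because the cells differ in their supply of GATA1, the 250 bases before the start of 5 genes are printed here, namely those that were nearly silent by 24 h. The sequences are RefSeq windows of build GRCm38.p6, 5′ to 3′, in lower case, with matches, on either strand, to the letters GATA with A or T before them and A or G after them in capitals.
Cpa3, chr3:20242182-20242431, minus strand: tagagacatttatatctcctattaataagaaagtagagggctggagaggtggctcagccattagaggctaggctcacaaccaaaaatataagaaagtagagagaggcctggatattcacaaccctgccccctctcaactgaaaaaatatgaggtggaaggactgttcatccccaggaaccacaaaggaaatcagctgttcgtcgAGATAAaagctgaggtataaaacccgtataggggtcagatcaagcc
Ms4a2, chr19:11623720-11623969, minus strand: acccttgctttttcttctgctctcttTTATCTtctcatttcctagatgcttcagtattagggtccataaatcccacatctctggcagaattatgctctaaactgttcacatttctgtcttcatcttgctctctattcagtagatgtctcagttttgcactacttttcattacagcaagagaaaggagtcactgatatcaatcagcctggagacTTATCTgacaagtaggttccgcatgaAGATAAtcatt
Fcer1a, chr1:173227230-173227479, minus strand: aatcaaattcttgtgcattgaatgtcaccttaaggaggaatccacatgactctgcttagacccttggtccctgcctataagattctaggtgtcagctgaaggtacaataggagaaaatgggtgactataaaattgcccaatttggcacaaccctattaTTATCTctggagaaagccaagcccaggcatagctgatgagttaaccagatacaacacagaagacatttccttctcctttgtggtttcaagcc
Il1rl1, chr1:40429320-40429569, plus strand: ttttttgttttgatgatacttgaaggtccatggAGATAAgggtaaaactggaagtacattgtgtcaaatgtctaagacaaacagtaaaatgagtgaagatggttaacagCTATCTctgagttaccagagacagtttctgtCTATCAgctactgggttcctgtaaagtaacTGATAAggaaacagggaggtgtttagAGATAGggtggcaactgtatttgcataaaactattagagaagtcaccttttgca
Cyp11a1, chr9:58014702-58014951, plus strand: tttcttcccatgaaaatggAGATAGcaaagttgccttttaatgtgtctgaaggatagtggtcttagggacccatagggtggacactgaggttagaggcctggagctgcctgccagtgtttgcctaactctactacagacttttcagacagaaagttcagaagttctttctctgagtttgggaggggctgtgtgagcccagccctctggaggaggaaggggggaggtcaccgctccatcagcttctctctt
RefSeq windows were found for 9 of 9 members, and for Cyp11a1 and Srgn, which have several RefSeq starts, the window was taken whose gene length fits the deposited positions. For Cyp11a1 those positions give a gene of 12.0052 kb, against 12.08 kb from the start shown and 29.008 kb from the more upstream RefSeq start. Il1rl1 held 5 matches, Ms4a2 held 3, and Cpa3, Fcer1a, Hdc, Alox5 and Cyp11a1 held 1 each. No match lay in the windows used for Fcer1g and Srgn. Among all 32851 RefSeq windows 26.5% held at least 1 match, 1.35% at least 3 and 0.0426% at least 5, and overlapping matches were counted apart. The Cpa3 match began 46 bases before the start, and those of Ms4a2 began 224, 37 and 11 bases before it. The Il1rl1 window belongs to the more upstream of its RefSeq starts, which lie 10059 bases apart, the same spacing as between the pair of Il1rl1 starts in the deposited peak table. The window of the other Il1rl1 start held 1 match. Gene length was not used to choose between them. It is 35.8 kb from the start shown and 25.8 kb from the other, against 18.8 kb from the deposited positions. A match is a description of these letters and does not show that a GATA factor was bound.

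Total gene-body counts were 37830789 to 139945759 per library and element counts 15394427 to 59952454, and replicates of a group correlated at 0.987 or more on the log scale across genes. Levels are CPM, counts scaled to a common library size with TMM factors, which correct for differences in library makeup. Levels of different genes are not set against each other, because gene lengths of the files' build were not at hand. Changes are log2 fold changes ± standard error (SE) from edgeR's quasi-likelihood test, with p-values adjusted (Benjamini-Hochberg) over every gene or element tested, and a gene was called at an adjusted p under 0.05. In these bulk libraries fewer cells that transcribe a gene and less transcription per cell cannot be told apart.

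All 9 genes passed the filter on low counts, but Ms4a2 and Fcer1a only through the 0 h libraries, the group where they are high, so both are left out of the counts that follow. By 13 h of estradiol 3 of the other 7 had fallen (Cpa3, Il1rl1 and Cyp11a1) and 1 had risen (Srgn), while 20.9% of all 13825 genes tested were called lower and 20.1% higher. By 24 h 4 of 7 had fallen, now with Hdc, and Srgn was again higher, against 30.7% of all genes called lower and 29.0% higher. Between 13 h and 24 h, 3 of 7 fell (Il1rl1, Hdc and Cyp11a1) and 0 rose, against 12.5% lower and 11.7% higher among all genes. Before any estradiol, 3 of 7 were higher in G1E-ER4 than in G1E (Hdc, Alox5 and Cyp11a1) and 0 were lower, against 7.88% higher and 9.58% lower among all genes. Fcer1g was called in no comparison. The comparisons at 13 h and 24 h share the same 0 h libraries, as does the comparison with G1E, so their counts are not independent. The median log2 change over the 7 genes was -0.47 at 13 h, -1.70 at 24 h, -1.23 from 13 h to 24 h and 0.38 for 0 h against G1E. The medians of all genes were -0.02, -0.07, -0.05 and 0.04.

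**Figure D1:**
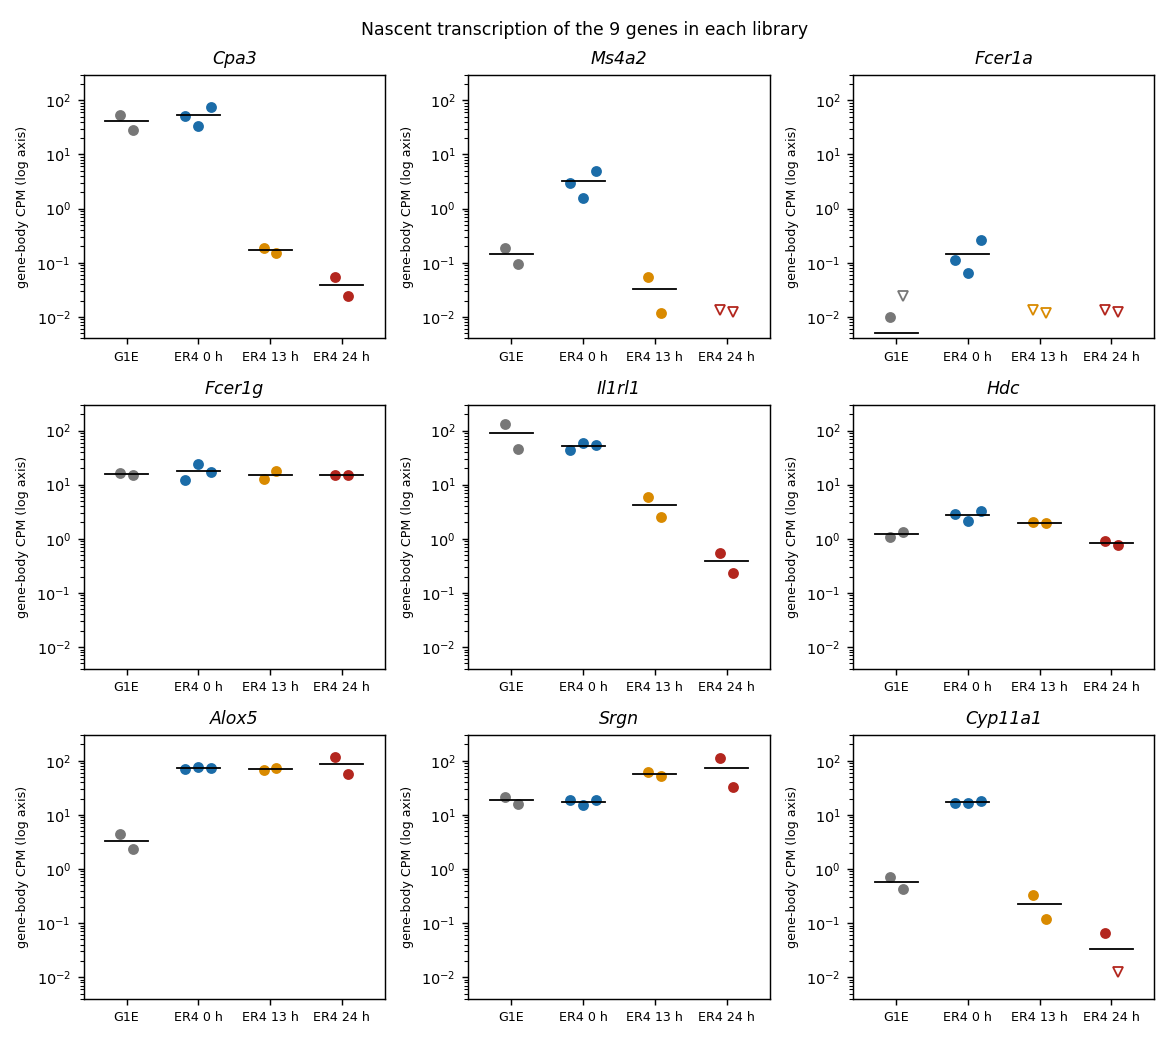
Gene-body CPM of each gene in each of the 9 libraries, on a log axis, with a bar at the group mean. Each filled point is a library, and an open triangle marks a library with 0 reads, drawn at the level that 1 read would give. Cpa3, Il1rl1, Ms4a2 and Cyp11a1 drop by 13 h, Alox5 differs between G1E and G1E-ER4, and Fcer1g stays near 15 CPM in most libraries.

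Of the IgE receptor chains, Ms4a2 and Fcer1a were highest at 0 h, whereas Fcer1g passed the test in no comparison. Ms4a2, the beta chain, gave 0.190 and 0.0966 CPM in G1E, 3.01, 1.55 and 4.997 CPM at 0 h, and 0.0542 and 0.0117 CPM at 13 h, with 0 reads in both 24 h libraries. Its 0 h libraries lie above all others and above the filter's cutoff of 0.118 CPM, and no groups overlap. It was 22.2-fold higher at 0 h than in G1E. It then fell 96.7-fold by 13 h, from 1086 reads to 5. At 24 h it was at least 165-fold lower than at 0 h, counted against 3 reads over the group. Since it passed the filter only through the 0 h libraries, the group where it is high, these values are given without a test.

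Fcer1a, the IgE-binding alpha chain, was close to the limit of detection. Its levels were 0.0100 CPM and 0 in G1E and 0.113, 0.0646 and 0.261 CPM at 0 h, and no read fell in it at 13 h or 24 h. The 0 h libraries, with 52 reads in all, are the only group in which every library held reads. Against them it was at least 7.78-fold lower at 13 h and at least 7.58-fold lower at 24 h, counted against 3 reads over the group. With 1 read in G1E, the ratio of 0 h to G1E was 29.2, with a 95% counting interval from 4.17 to 978. Since it passed the filter only through the 0 h libraries, which lie close to its cutoff, these values are given without a test.

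Fcer1g, the gamma chain that the other myeloid Fc receptors also need, passed the test in none of the 4 comparisons. It was at 16.2 and 15.4 CPM in G1E, 12.3, 23.7 and 17.0 CPM at 0 h, 12.7 and 17.9 CPM at 13 h, and 14.95 and 14.8 CPM at 24 h. All groups overlap the 0 h range. The largest of its 4 changes was -0.25 ± 0.27 (24 h against 0 h, adjusted p = 0.451), and the estimate stayed between -0.63 and 0.02 under the alternatives tried. A p above the threshold does not show that the level was the same.

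Il1rl1, the interleukin 33 receptor ST2, fell in stages. It stood at 134.7 and 44.8 CPM in G1E, 44.3, 59.4 and 54.5 CPM at 0 h, 5.83 and 2.57 CPM at 13 h, and 0.549 and 0.235 CPM at 24 h. G1E replicate 1 is far above the rest, G1E replicate 2 lies within the 0 h range, and the 0 h, 13 h and 24 h groups do not overlap. The gene fell 12.6-fold by 13 h (-3.65 ± 0.54, adjusted p = 0.000541) and a further 10.7-fold by 24 h (-3.42 ± 0.62, adjusted p = 0.0052), which brought it to 0.744% of its mean at 0 h. Against G1E the 0 h level did not pass the test (-0.77 ± 0.45, adjusted p = 0.297), and without G1E replicate 1 that estimate was 0.25. Without a low-count filter, and so with more genes to adjust over, the 13 h to 24 h step missed the threshold (adjusted p = 0.0528). It also did so with a block for the first 2 digits of the numbers that open the titles (adjusted p = 0.0694).

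Among the granule genes Cpa3 went nearly silent and Srgn rose. Cpa3, the mast cell carboxypeptidase, was at 53.2 and 28.9 CPM in G1E and at 50.7, 33.2 and 76.6 CPM at 0 h, but the 13 h libraries gave 0.190 and 0.152 CPM and the 24 h libraries 0.0536 and 0.0248 CPM. G1E and 0 h overlap, and both lie far above the estradiol-treated libraries. The comparison of 0 h with G1E gave 0.38 ± 0.34 (adjusted p = 0.525). Its mean at 13 h was 0.319% of that at 0 h and its mean at 24 h 0.0732%, or 27 and 6 reads over the group against 17735. The step from 13 h to 24 h did not pass the test (-2.09 ± 0.86, adjusted p = 0.105), although it did under DESeq2 (adjusted p = 0.0222).

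Srgn, the serglycin core protein of granules in many blood cells, was at 21.5 and 15.7 CPM in G1E and 18.5, 15.4 and 18.5 CPM at 0 h. The 13 h libraries gave 62.2 and 52.6 CPM, and those of 24 h gave 111.6 and 32.8 CPM. Every estradiol-treated library is above every untreated one, and the 24 h libraries lie on either side of the 13 h pair. It rose 3.29-fold by 13 h (1.72 ± 0.39, adjusted p = 0.00581; 0.0582 with no filter on low counts) and was 4.14-fold above 0 h at 24 h (2.05 ± 0.39, adjusted p = 0.00118). The size at 24 h rests on the pair of unlike libraries. Without 24 h replicate 1 it was 0.91 and without replicate 2 it was 2.69, both still past the test. From 13 h to 24 h the change was 0.33 ± 0.43 (adjusted p = 0.607), and without 24 h replicate 2 it was 0.95 and passed the test (adjusted p = 0.0391).

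Hdc, which makes histamine, moved late and by little. It was at 1.06 and 1.35 CPM in G1E, 2.88, 2.13 and 3.24 CPM at 0 h, 2.06 and 1.93 CPM at 13 h, and 0.924 and 0.768 CPM at 24 h. The groups do not overlap, and their order from high to low is 0 h, 13 h, G1E and 24 h. It was 3.25-fold lower at 24 h than at 0 h (-1.70 ± 0.34, adjusted p = 0.00167), whereas the step from 0 h to 13 h did not pass the test (-0.47 ± 0.32, adjusted p = 0.275). The step from 13 h to 24 h was -1.23 ± 0.36 (adjusted p = 0.0338), and that call ended without 0 h replicate 3 (adjusted p = 0.052), without either 13 h library (0.108 without replicate 1 and 0.0929 without replicate 2) and without either 24 h library (0.0711 and 0.164). It also ended without a filter (0.0628), with the title number block (0.136) and with only the compared groups fitted (0.0885). It was higher at 0 h than in G1E (1.20 ± 0.34, adjusted p = 0.0342), a call that was lost without G1E replicate 1, G1E replicate 2, 0 h replicate 1 or 0 h replicate 3 (adjusted p = 0.211, 0.0917, 0.0635 and 0.117), with the title number block (0.11) or with only the compared groups fitted (0.0511).

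The enzyme genes Alox5 and Cyp11a1 were both low in G1E and high at 0 h, and parted after estradiol. Alox5, 5-lipoxygenase, was at 4.38 and 2.32 CPM in G1E, 70.5, 77.7 and 72.7 CPM at 0 h, 68.6 and 74.6 CPM at 13 h, and 116.3 and 56.5 CPM at 24 h. All 7 G1E-ER4 libraries lie above both G1E libraries, and the 24 h pair spans the 0 h range. It was 21.996-fold higher at 0 h than in G1E (4.43 ± 0.37, adjusted p = 2.93e-05). The changes with estradiol were -0.04 ± 0.30 at 13 h (adjusted p = 0.926) and 0.23 ± 0.29 at 24 h (adjusted p = 0.523), and the latter was -0.38 without 24 h replicate 1 and 0.67 without replicate 2.

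Cyp11a1, the first enzyme of steroid synthesis, was at 0.711 and 0.435 CPM in G1E, 16.5, 16.9 and 17.8 CPM at 0 h, 0.325 and 0.117 CPM at 13 h, and 0.0670 CPM and 0 at 24 h. The 0 h libraries are close to each other and far above the rest, and no groups overlap. It was 29.8-fold higher at 0 h than in G1E (4.85 ± 0.56, adjusted p = 0.000267) and then fell 77.3-fold by 13 h (-6.29 ± 0.61, adjusted p = 5.41e-05). By 24 h 5 reads were left of 5212, a fall of 510-fold (-8.98 ± 0.75, adjusted p = 6.36e-06). The step from 13 h to 24 h (-2.69 ± 0.85, adjusted p = 0.045) passed the test narrowly. It was lost without G1E replicate 1 or 2, 0 h replicate 1, 2 or 3, 13 h replicate 1, or 24 h replicate 2, with adjusted p from 0.0564 to 0.231, and with the title number block (0.212) or only the compared groups fitted (0.145).

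**Figure D2:**
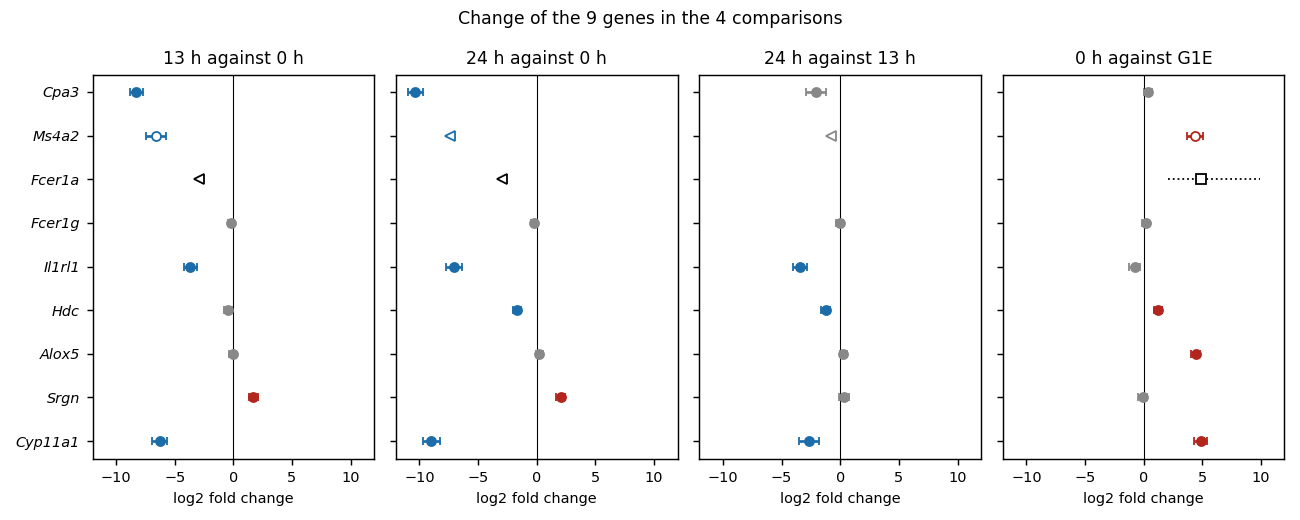
Log2 fold change of each gene in each of the 4 comparisons, with bars of 1 SE. Blue marks genes called lower and red genes called higher, grey points did not pass the test, triangles are lower bounds where a group had 0 reads, and the square with a dotted line is a ratio with its counting interval. Open symbols are genes that passed the filter on low counts only through the 0 h libraries, of which Fcer1a, in black, is drawn without a call. The colour of the other, Ms4a2, is not read as a call. Cpa3 and Il1rl1 passed the test with estradiol and not against G1E, Alox5 against G1E and not with estradiol, and Cyp11a1 in both.

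Across the 4 groups the genes therefore fall into patterns that a single comparison does not show. Cpa3 and Il1rl1 were already transcribed in G1E, with G1E means of 76.7% and 170% of the 0 h means. Cyp11a1 and Alox5 had G1E means of 3.36% and 4.55% of 0 h. Those of Ms4a2 and Fcer1a were 4.50% and 3.42%, but both passed the filter only through the 0 h libraries and are given without a test. The Fcer1a value rests on 1 read in G1E. Srgn and Fcer1g had G1E means of 107% and 89.4%. After 13 h, Ms4a2 and Cyp11a1 were at 1.03% and 1.29% of 0 h and Il1rl1 at 7.96%, while Hdc was at 72.4% and Alox5 at 97.2%.

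Elements that name the 9 genes moved in both directions. Of the 54 elements that name a member, 46 passed the filter on low counts. Of these, 8 passed only through the 0 h libraries and are left out of the counts, which leaves 38. By 13 h 12 of the 38 were called lower and 8 higher (31.6% and 21.1%), against 18.6% and 15.2% of all 35158 elements tested. At 24 h 16 were lower and 11 higher (42.1% and 28.9%), against 29.5% and 22.7%. From 13 h to 24 h 6 were lower and 3 higher (15.8% and 7.89%), against 7.82% and 5.28%, and for 0 h against G1E 7 were lower and 5 higher (18.4% and 13.2%), against 12.1% and 7.18%. The median log2 change of the 38 was -0.33, -1.21, -0.48 and 0.06 in these comparisons, against -0.13, -0.18, -0.08 and 0.01 over all elements. These elements are of several kinds, since the authors name neighbours on either side: 9 lay at a member's own start, 11 inside the member, 13 between genes and 21 inside another gene. Reads of elements inside a gene can also be counted in its body, so body and element are not independent measures.

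Of the 9 elements at a start, 7 passed the filter without the 0 h libraries. Of these 7, 3 were lower and 1 higher at 13 h, where 18.6% and 15.2% of all elements were, and 4 were lower and 1 higher at 24 h, where 29.5% and 22.7% were. The element at the Cpa3 start (mm9 chr3:20140600-20142851) was at 7.18 and 4.84 CPM in G1E, 6.42, 3.95 and 8.73 CPM at 0 h, 0.0289 and 0.120 CPM at 13 h and 0.0535 and 0.124 CPM at 24 h. G1E and 0 h overlap here too, and so do 13 h and 24 h. It fell by 13 h (-6.30 ± 0.64, adjusted p = 9.51e-06) and was low at 24 h too (-6.15 ± 0.64, adjusted p = 4.59e-06 against 0 h). A second, weaker element 1.80 kb upstream (mm9 chr3:20143450-20144301) went from 95 reads at 0 h to 1 at 13 h and 0 at 24 h, at least 17.2-fold lower at 24 h. It passed the filter only through the 0 h libraries and is given without a test.

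The Il1rl1 start element (mm9 chr1:40485650-40489501) was slower to fall than that of Cpa3. It was at 28.7 and 15.4 CPM in G1E, 13.0, 6.77 and 13.0 CPM at 0 h, 3.52 and 1.27 CPM at 13 h, and 0.134 and 0.0931 CPM at 24 h. The groups do not overlap, and 13 h kept 21.96% of the 0 h mean where the Cpa3 start kept 1.17%. The change was -2.20 ± 0.46 by 13 h (adjusted p = 0.00264) and -4.34 ± 0.67 from 13 h to 24 h (adjusted p = 0.00248). The difference in pace between these genes was not tested.

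Most elements named for Il1rl1 are not at its start. Of its 16 elements 11 passed the filter without the 0 h libraries. Of these 11, 9 fell from 0 h to 24 h (81.8%, against 29.5% of all elements) and 6 were lower at 0 h than in G1E (54.5%, against 12.1%). Many lie 68.5 kb or more upstream, inside Il1rl2, the receptor for interleukin 36, where counts on the sense strand can be those of the neighbour. The element at mm9 chr1:40416950-40418901 within Il1rl2 was at 12.8 and 10.3 CPM in G1E, 3.96, 1.93 and 1.91 CPM at 0 h, 1.07 and 0.983 CPM at 13 h and 0.160 and 0.217 CPM at 24 h. It was lower at 0 h than in G1E (-2.16 ± 0.37, adjusted p = 0.00101), where the Il1rl1 start gave -1.02 ± 0.41 (adjusted p = 0.102). The start did pass the test with only the compared groups fitted (adjusted p = 0.0326), without 13 h replicate 1 (0.0449) and without 13 h replicate 2 (0.0447). Whether these 2 differences are unlike was not tested.

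At Ms4a2 a downstream element held more G1E reads than the start. The start element (mm9 chr19:11696950-11698801) was at 0.0673 CPM and 0 in G1E, 0.883, 0.311 and 2.12 CPM at 0 h, 0.0289 CPM and 0 at 13 h, and 0 reads at 24 h. An element between genes, centred 10.5 kb downstream of that start (mm9 chr19:11685850-11689551) and also named for Ms4a6d, was at 8.54 and 6.56 CPM in G1E, 12.8, 11.3 and 19.1 CPM at 0 h, 0.838 and 0.791 CPM at 13 h, and 0.160 and 0.217 CPM at 24 h. So the downstream element was well measured in G1E, where the start held 3 reads. The start passed the filter only through the 0 h libraries, close to its cutoff, and is given without a test. The downstream element was not called for 0 h against G1E (0.93 ± 0.32, adjusted p = 0.0544), but it was under DESeq2 (adjusted p = 0.0303), with only the compared groups fitted (0.0454) and without 0 h replicate 1 (0.0498). Its G1E mean was 52.4% of 0 h where the start's was 3.05%, and the difference between them was not tested. The downstream element fell by 13 h (-4.14 ± 0.38, adjusted p = 4.57e-06), and the start was at least 25.6-fold below 0 h at 24 h.

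Cyp11a1 showed the same course in its body and at its start. The start element (mm9 chr9:57861500-57864651) was at 0.471 and 0.398 CPM in G1E, 10.97, 8.30 and 10.5 CPM at 0 h, 0.751 and 0.0959 CPM at 13 h and 0.160 and 0.0310 CPM at 24 h. The element inside the gene (mm9 chr9:57869150-57870151), 56.9% of the way along it in the deposited table and also named for the predicted gene Gm16130, was at 0.157 and 0.133 CPM in G1E, 3.37, 5.28 and 5.39 CPM at 0 h, 0 at 13 h, and 0.0267 CPM and 0 at 24 h. In both, 0 h stands above every other group. The inner element passed the filter only through the 0 h libraries and is given without a test. The start was higher at 0 h than in G1E by 4.47 ± 0.66 (adjusted p = 0.000327). By 13 h the start had fallen (-4.58 ± 0.65, adjusted p = 0.000155), and the inner element was at least 119-fold lower than at 0 h.

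No element at the start of Fcer1a or Fcer1g was among those that name them. An element 10.4 kb downstream of the Fcer1a start (mm9 chr1:175145950-175147901), which the table places at the end of the olfactory receptor gene Olfr1404, was at 0.247 and 0.133 CPM in G1E, 2.27, 1.21 and 2.57 CPM at 0 h, 0 and 0.0240 CPM at 13 h, and 0.0267 CPM and 0 at 24 h. Only the 0 h libraries exceed 1 CPM, and the element passed the filter only through them. It went from 260 reads at 0 h to 1 at 13 h, a ratio whose 95% counting interval is 28.8 to 6424. Its G1E mean was 9.39% of that at 0 h, and these values are given without a test. The pair of strand counts at the end of Fcer1g, next to Tomm40l, passed the test in none of the 4 comparisons.

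At Srgn the largest rise was upstream of the start listed for it. Srgn also has a more upstream RefSeq start, which gives a gene of 33.6 kb against 13.9 kb from the start used. The element described next is between genes by the deposited positions but may lie inside that longer form. An element between genes, centred 14.3 kb upstream of the start (mm9 chr10:61983650-61985901) and also named for Kif1bp, was at 1.05 and 0.729 CPM in G1E, 0.669, 0.932 and 0.775 CPM at 0 h, 9.45 and 9.62 CPM at 13 h, and 8.45 and 6.24 CPM at 24 h. The treated libraries lie well above the untreated ones and close to each other. It rose by 13 h, to 1203% of the 0 h mean (3.59 ± 0.34, adjusted p = 5.19e-06), and was 3.21 ± 0.33 above 0 h at 24 h (adjusted p = 4.75e-06). The Srgn start element (mm9 chr10:61965850-61972751) was at 41.5 and 27.6 CPM in G1E, 27.7, 27.2 and 32.1 CPM at 0 h, 83.0 and 79.3 CPM at 13 h, and 114 and 43.0 CPM at 24 h. It rose by 1.48 ± 0.32 at 13 h (adjusted p = 0.00323), and its 1.44 ± 0.32 at 24 h (adjusted p = 0.00221) was 0.57 without 24 h replicate 1, which did not pass the test (adjusted p = 0.0994). Unlike the start, the upstream element kept its call at 24 h without that library.

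The Alox5 peak at the start (mm9 chr6:116405550-116411701) was counted by strand. On the minus strand, along which Alox5 is transcribed, it was at 2.38 and 1.19 CPM in G1E, 23.9, 25.2 and 27.8 CPM at 0 h, 30.3 and 32.4 CPM at 13 h, and 51.1 and 27.6 CPM at 24 h. On the plus strand it was at 3.70 and 1.52 CPM in G1E, 9.68, 4.16 and 5.82 CPM at 0 h, 2.83 and 3.72 CPM at 13 h, and 2.75 and 1.33 CPM at 24 h. The sense strand thus separates G1E from all other libraries, while the antisense G1E counts overlap those of the treated cells. Sense counts were higher at 0 h than in G1E (3.77 ± 0.35, adjusted p = 5.73e-06), and the antisense difference did not pass the test (1.28 ± 0.48, adjusted p = 0.0777), although it did under DESeq2 (adjusted p = 0.0403). From 0 h to 24 h antisense counts fell (-1.68 ± 0.49, adjusted p = 0.0104), but not past the test without 24 h replicate 2 (adjusted p = 0.151), and sense counts gave 0.62 ± 0.28 (adjusted p = 0.082), which passed without 24 h replicate 2 (adjusted p = 0.00895) or without G1E replicate 2 (adjusted p = 0.0306).

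Elements named for Alox5 but lying inside its neighbour March8, a ubiquitin ligase gene, rose with estradiol. The one at mm9 chr6:116318900-116320701 was at 3.25 and 3.91 CPM in G1E, 4.84, 6.18 and 8.39 CPM at 0 h, 23.2 and 20.7 CPM at 13 h, and 44.5 and 55.2 CPM at 24 h (2.94 ± 0.27 against 0 h, adjusted p = 1.47e-06). Its groups climb in order while the Alox5 body did not pass the test with estradiol. The Hdc start was counted by strand as well. On the minus strand, the sense of Hdc, it passed the test in none of the 4 comparisons and was at 0.964 and 0.928 CPM in G1E, 1.95, 1.62 and 1.76 CPM at 0 h, 1.56 and 1.49 CPM at 13 h, and 0.668 and 1.21 CPM at 24 h. The plus strand passed the filter only through the 0 h libraries and is given without a test. Its mean at 24 h was 22.7% of that at 0 h.

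**Figure D3:**
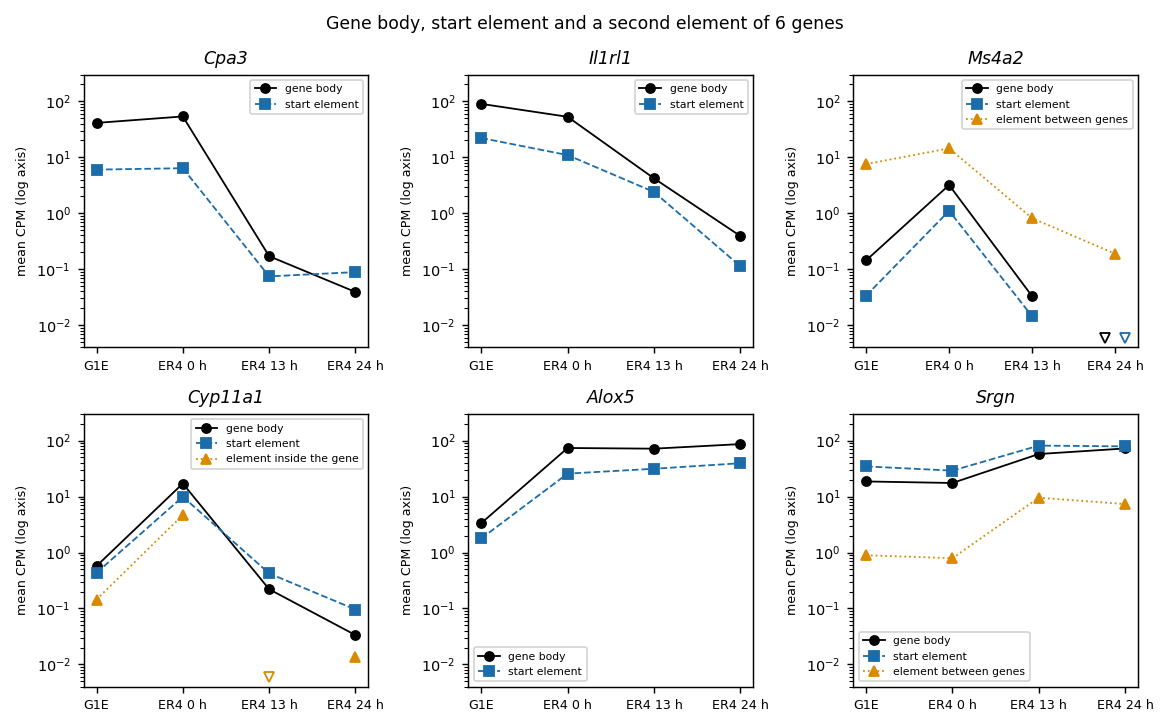
Mean CPM over the libraries of each group, on a log axis, for the gene body, the start element (for Alox5 its sense strand) and, where shown, a further element of 6 genes. Open triangles at the foot mark groups with 0 reads, and heights of different lines are not comparable since body and element counts were scaled apart. Body and start lines move the same way from 0 h to 13 h in Cpa3, Il1rl1, Ms4a2, Cyp11a1 and Srgn, while the element downstream of Ms4a2 is high in G1E already and the element upstream of Srgn rises by 13 h.

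**Figure D4:**
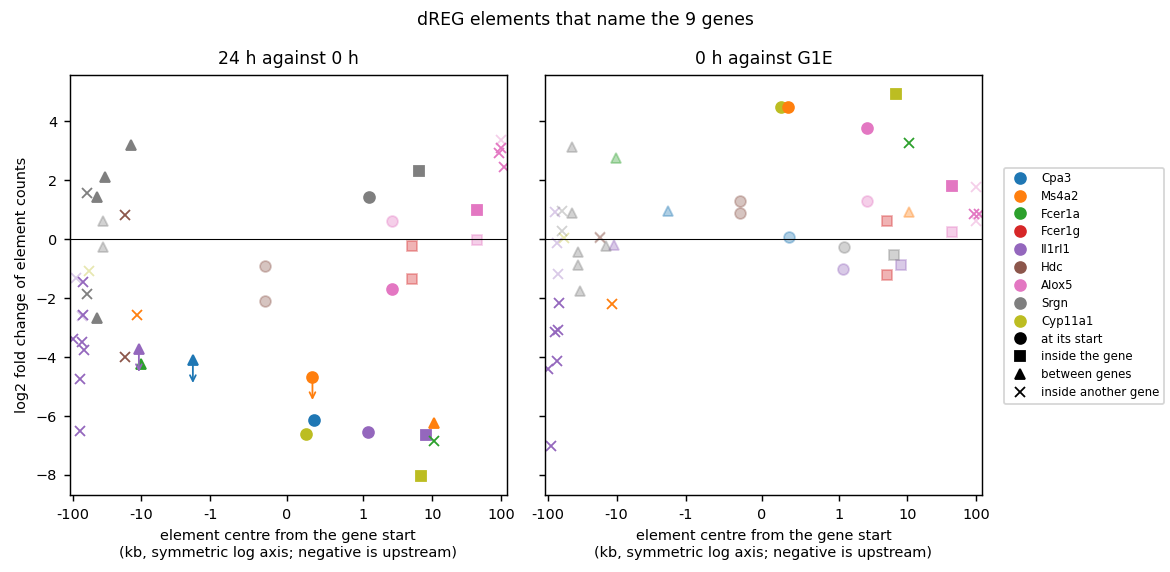
Log2 fold change of each of the 46 tested elements against the distance of its centre from the gene's start in kb, on a symmetric log axis, for 24 h against 0 h and for 0 h against G1E. Colours are genes, symbols give where the element lies, faint symbols did not pass the test, 8 of the 46 passed the filter only through the 0 h libraries, and an arrow marks a lower bound where a group had 0 reads. Elements within 10 kb of the starts of Cpa3, Il1rl1, Ms4a2 and Cyp11a1 lie below 0 at 24 h and those of Srgn above it.

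Other genes of these cells gave a mixed picture. Lists of 99 further genes in 7 groups were examined, chosen with earlier results known, and 64 passed the filter. Slc18a2, 1 of the 64, passed only through the 0 h libraries and is still in the counts below. At 13 h 23 were lower and 13 higher, where 20.9% and 20.1% of all genes were, so the share called higher lies near that of all genes. At 24 h 32 were lower and 13 higher, against 30.7% and 29.0%. From 13 h to 24 h 10 were lower and 9 higher, against 12.5% and 11.7%, and for 0 h against G1E 10 lower and 9 higher, against 9.58% and 7.88%. Their median log2 change was -0.30, -0.88, -0.29 and 0.16. The granule proteases that define mature mast cells and basophils were at or near 0 throughout. Of 16 granule genes 11 did not pass the filter, among them the chymase Cma1, the tryptases Tpsab1 and Tpsb2 and Mcpt1, Mcpt2, Mcpt4, Mcpt8 and Mcpt9, and none of the 11 exceeded 0.128 CPM in any library. Of the 5 tested, Slc18a2 among them, 4 were lower at 24 h (30.7% of all genes were). The 4 include Tph1, which starts serotonin synthesis (-1.80 ± 0.54, adjusted p = 0.0156), and Ndst2, which sulphates heparin (-0.50 ± 0.19, adjusted p = 0.0383). The granule protease Gzmb was among the 5 tested, with 188 reads in all and at most 1.16 CPM in a library. Cpa3 was transcribed in G1E and at 0 h, and its level was not set against those of these granule genes.

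Of 15 tested genes of IgE receptor signalling, 8 were lower and 3 higher at 13 h, where 20.9% and 20.1% of all genes were. At 24 h 9 were lower and 3 higher, against 30.7% and 29.0% of all genes. Rasgrp4, a Ras activator of mast cells, fell from 24.3, 7.86 and 11.3 CPM at 0 h to 1.18 and 0.260 CPM at 24 h (-4.33 ± 0.84, adjusted p = 0.00135). The adaptors Lcp2 (-3.08 ± 0.60, adjusted p = 0.00142) and Grap2 (-2.30 ± 0.27, adjusted p = 5.01e-05) and the kinase Lyn (-1.93 ± 0.42, adjusted p = 0.00262) were lower at 24 h too. Of 5 tested lipid mediator genes, 2 were lower at 24 h and 0 higher, against 30.7% and 29.0% of all genes. Alox5ap, the partner that Alox5 needs to make leukotrienes, was at 8.92, 8.35 and 11.4 CPM at 0 h and 2.84 and 0.446 CPM at 24 h (-2.54 ± 0.62, adjusted p = 0.00535), so it fell where Alox5 did not pass the test.

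Of 15 receptors tested 7 were lower and 4 higher at 24 h, the latter near the 29.0% of all genes called higher, with 30.7% lower. Il18r1, the interleukin 18 receptor and a relative of Il1rl1, went from 15.2, 18.04 and 16.7 CPM at 0 h to 0.147 and 0.0496 CPM at 24 h (-7.40 ± 0.67, adjusted p = 9.95e-06). Kit, the receptor for the Kit ligand in the medium, was at 474, 604 and 609 CPM at 0 h and 105 and 46.9 CPM at 24 h (-2.89 ± 0.35, adjusted p = 5.61e-05). Cd200r3, a receptor of mast cells and basophils, was also lower (-3.65 ± 0.64, adjusted p = 0.000667). In the other direction, Csf2rb, the beta chain shared by the receptors for interleukin 3, interleukin 5 and GM-CSF, was 4.80 ± 0.27 higher at 24 h (adjusted p = 7.87e-07) and its near copy Csf2rb2 7.52 ± 0.22 higher (adjusted p = 5.29e-08), and reads may be split between them.

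Of 13 transcription factors tested, 5 were lower and 4 higher at 24 h, near the 30.7% and 29.0% of all genes. Gata2 was at 308 and 147 CPM in G1E, 131, 147 and 185 CPM at 0 h, 20.8 and 36.7 CPM at 13 h, and 35.4 and 12.2 CPM at 24 h (-2.70 ± 0.49 at 24 h, adjusted p = 0.000854). Gata1 was 0.49 ± 0.18 higher at 24 h (adjusted p = 0.0349), but these counts do not separate its own transcripts from those of the fusion and do not check the lines' labels. Mitf, a mast cell factor, had 48 reads at 0 h and 2 at 24 h, a ratio of 10.4 with a 95% counting interval of 3.23 to 105 (adjusted p = 0.0132). Tfe3 (3.13 ± 0.21, adjusted p = 2.15e-06), Stat5b (1.82 ± 0.13, adjusted p = 2.86e-06) and Zeb2 (1.54 ± 0.13, adjusted p = 6.21e-06) were higher. Of 6 cytokines tested 4 were lower at 24 h, against 30.7% of all genes, among them Lif (-3.67 ± 0.35, adjusted p = 1.37e-05), Osm (-3.62 ± 0.24, adjusted p = 1.73e-06) and Tnf (-2.53 ± 0.50, adjusted p = 0.00156). Counts assigned to Il4 were higher (2.35 ± 0.28, adjusted p = 5.47e-05), and whether the counting used strand is not stated, so transcription through Il4 from elsewhere cannot be told apart from its own. Of 5 tested genes of steroid synthesis beside Cyp11a1, 1 was lower (Star, the cholesterol carrier, -1.41 ± 0.25, adjusted p = 0.000706) and 1 higher (Por, the P450 reductase, 1.68 ± 0.11, adjusted p = 1.95e-06) at 24 h. Both shares lie below those of all genes, 30.7% lower and 29.0% higher.

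Markers of other cells moved beside these changes. The summed level of 11 red cell markers was 934 to 1034 CPM at 0 h and 9255 to 9472 CPM at 24 h. Most of the 24 h sum was Sptb, with a mean of 309 CPM at 0 h and 5815 CPM at 24 h. Of the 11, 9 were called higher at 24 h, against 29.0% of all genes, and their median log2 change was 1.80. The sum of 10 megakaryocyte markers was 79.3 to 82.2 CPM at 0 h and 58.8 to 73.1 CPM at 24 h. Of the 6 tested, 2 were called higher and 1 lower at 24 h, against 29.0% and 30.7% of all genes. Sums of 9 neutrophil and monocyte markers stayed between 0.289 and 1.36 CPM, those of 7 eosinophil markers between 0.128 and 2.79 CPM with Ear1 and Ear2 at 0 reads in all libraries, and those of 10 lymphocyte markers between 1.64 and 4.56 CPM. The part of the rising red cell transcription in the members' changes was not tested. Under total counts without TMM the median of all genes moved to -0.45 at 24 h, and no member changed its direction past the test.

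The genes whose pattern across the 9 libraries was most like that of Cpa3, by Pearson's r of log2 CPM among 10291 genes, were Nacc1 (r = 0.997), Angpt1 (0.996), Gtpbp4 (0.995), Rbm43 (0.995) and Rusc2 (0.995). For Srgn they were Strn4 (0.974), Dapp1 (0.971), Inpp5d (0.965), Arhgdib (0.962) and Tpm1 (0.959). Among the members themselves Cyp11a1 tracked Ms4a2 most closely (r = 0.978) and Il1rl1 tracked Cpa3 (r = 0.954), whereas Alox5 and Cpa3 gave -0.44. An r value does not depend on the size of a change. From 0 h to 24 h the mean of Nacc1 went from 119.8 to 52.4 CPM and that of Rusc2 from 11.8 to 0.315 CPM. The mean of Dapp1 went from 816 to 1104 CPM and that of Arhgdib from 157 to 368 CPM. These r values share the same 9 libraries and group structure and are given as description.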

How the data were processed

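The authors deposited raw read counts per gene body and per dREG peak or peak strand, per the file headers, and the position of a peak along its gene as a percent, also deposited by the authors. The submitters' processing notes name BWA and mm9, while the counting tool, its strand setting and its annotation were not given in the sources used here. Peak coordinates and gene starts are those of the deposited table. Counts were fitted with edgeR 4.0.16 (R 4.3.3) with TMM scaling, filterByExpr, a mean for each of 4 groups and its quasi-likelihood test in robust mode (5 residual degrees of freedom). After filtering, 13825 genes and 35158 elements were tested, and the SE is the size of the log2 change divided by the root of F. A group with 0 reads was bounded by 3 reads over the group, and ratios with 1 to 3 reads carry 95% counting intervals, which cover counting error only. Tested on simulated data for 13 h against 0 h, the gene fit recovered 94.8% of log2 changes of 3 and 47.5% of log2 changes of 1.5, and the element fit 93.6% and 22.7%.

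The members and gene lists were chosen with earlier results of these data known. All 9 members are named. Each further list is given by its counts with up to 4 genes of the largest change called at 24 h and at least 50 reads on average, plus Gata1, Gata2, Kit and Mitf. Elements are described from the start element and those of largest mean CPM, up to 4 per gene. Genes most alike are the 5 of highest Pearson's r at a mean of at least 1 CPM. Alternatives were other scalings, DESeq2 1.42.0, other filters, blocks, fewer groups and leaving out each library.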

Additional observations from a re-analysis of the deposited data

How the results depend on the processing

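No call of a member gene or described element changed direction under any alternative. Counts in this paragraph take in Ms4a2, Fcer1a and elements that passed the filter only through the 0 h libraries. They describe the processing only, and the shares called among all genes and elements in the main fit are given above. Over 594 member gene values, 557 kept their side of the threshold, 34 lost a call and 3 gained one. Of 1974 element values, 1884 kept it, 73 lost a call and 17 gained one. With all 9 genes counted, the 3 calls from 13 h to 24 h fell to 1 without a filter, 0 with a block for the numbers that open the titles, whose meaning the labels do not give, and 1 with only the compared groups fitted, and leaving out a library gave 1 to 2. The 5 calls for 0 h against G1E became 3 with the replicate block, 3 with the title number block and 3 with only the compared groups, and 3 to 5 without a library. The 9 element calls from 13 h to 24 h became 2 with the title number block, and 1 (without 24 h replicate 2) to 9 without a library. The 26 element calls at 13 h ranged from 17 (without 13 h replicate 2) to 27. Elements matched by the overlapped gene alone gave 8, 10, 2 and 5 calls at 13 h, at 24 h, from 13 h to 24 h and for 0 h against G1E.

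The labels do not say that replicate numbers pair the samples. Same-numbered deviations correlated at 0.459 and 0.444 between 0 h and 13 h, whose opening title numbers run on, and at -0.15 to 0.162 between the other pairs of groups, so the numbers were not taken as pairs across the design. Under the replicate block the 6 member calls at 13 h, Ms4a2 and Fcer1a included, stayed 6. The step from 13 h to 24 h was lost for Hdc (adjusted p = 0.0543) and Cyp11a1 (0.0561) and gained for Cpa3 (0.0187), and for 0 h against G1E Hdc (0.119) was lost and the Il1rl1 start (0.0159) and the antisense Alox5 start (0.0489) gained. The Hdc plus-strand start, which passed the filter only through the 0 h libraries, is given without a test here too. All genes called for 0 h against G1E went from 2415 to 1552 with the replicate block. With the title number block they went to 820, and those from 13 h to 24 h from 3349 to 59 (1583 with only those groups). All elements called from 13 h to 24 h went from 4607 to 1016, and to 2452 under gene-body scaling. Without a library all genes called ranged from 1145 for 0 h against G1E and 1233 from 13 h to 24 h, and all elements from 2420, 651 and, at 13 h, 7625. Under total counts the share of calls that were higher went from 48.6% to 30.8% for genes at 24 h and from 48.3% to 17.2% from 13 h to 24 h, and from 40.3% to 20.8% for elements. Under gene-body scaling the element share at 13 h went from 45.1% to 56.0%. Low counts limit Fcer1a, Ms4a2 and Cyp11a1 after estradiol.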
